A study of Rattus norvegicus with 6 samples.

Results

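Heat shock proteins and their co-chaperones were examined in primary rat cells (strain SD in the labels) of the nucleus pulposus, which is the soft centre of the intervertebral disc. The 37 genes were taken by symbol from a list of chaperones, and 36 of them had a row among the 19088 genes of the deposited table, each on a single row. The level of Hspa1a was not analysed here. The list is not purely cytosolic, since Hspa9, Hspd1, Hspe1 and Dnaja3 encode mitochondrial proteins and Hspa13 a protein of the endoplasmic reticulum. The rShh group was 3 samples given recombinant Sonic hedgehog at 200 ng/ml for 48 h, and the Control group was 3 samples given its solvent, DMSO, for 48 h. Both groups were grown in medium with fetal bovine serum. The labels do not tell if a group's 3 samples were grown or dissected separately, so each p-value reflects sample-to-sample spread that may be technical only. Values written with ± are means with the SD of 3 libraries.

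Chaperones hold unfolded proteins in solution and help them to fold. Small heat shock proteins bind unfolding clients without using ATP, HSP70 proteins bind and release short stretches of them in ATP-driven cycles started by J-domain proteins and ended by nucleotide exchange factors, and HSP90 completes the folding of kinases and receptors. Under heat or proteotoxic stress the transcription factor HSF1 raises many of these genes together through heat shock elements in their promoters. Cells of the disc core live under load, at low oxygen and at high osmolarity, and small heat shock proteins are among the genes studied there.

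Gene counts summed to 65116846 to 70031072 per library in the rShh group and 50758195 to 55501124 in the Control group. Transcripts of the Y chromosome separated the groups: Eif2s3y had 3871, 4159 and 3868 counts in the rShh libraries and 0 in each Control library. The sex of the source animals and the treatment therefore cannot be told apart in any comparison below. The same holds for any other difference between the groups' source animals or their cultures. Of 11 listed markers of nucleus pulposus and notochordal cells, 7 had a row, and their summed level was 696 to 732 CPM (counts scaled to a common library size) in the rShh libraries and 256 to 269 CPM in the Control libraries, most of it from Acan in the rShh group. Of the 6 markers tested, 1 rose (Acan), 4 fell (Krt8, Cd24, Pax1 and Col2a1) and Foxf1 did not pass. Col2a1, the main collagen of cartilage, had 17, 4 and 0 counts in rShh libraries and 97, 87 and 76 in Control libraries. Mitochondrial transcripts were 3.25% to 3.36% of counts in rShh libraries and 1.97% to 2.29% in Control libraries. Of 6 macrophage and leukocyte markers 4 had a row. Their sum, mostly Cd14, lay at 12.9 to 15.5 CPM in rShh libraries and 10.9 to 14.1 CPM in Control libraries. Of 5 endothelial markers only Tek and Vwf had a row. Their sum lay at 1.89 to 2.20 CPM in rShh libraries and 4.86 to 7.13 CPM in Control libraries. Most of it was Tek, which fell (log2 change -1.70), while Vwf did not pass (log2 change 0.33). In such bulk RNA, fewer cells of a type and less RNA per cell cannot be told apart.

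The heat shock genes split in both directions, without a common shift. Of the 36 genes, 15 rose, 11 fell and 10 did not pass edgeR's quasi-likelihood test at an adjusted p of 0.05, which is 72.2% called. Among all 14775 genes tested, 60.3% passed, 31.5% higher and 28.8% lower. The shares of the heat shock genes were 41.7% higher and 30.6% lower. The median log2 change, rShh over Control, was 0.08 over the 36 genes and 0.01 over all genes. Changes were mostly small: the absolute log2 change had a median of 0.37 over the 36 genes and 0.49 over all genes, and 27 of the 36 lay under 0.5. Hspb7, Dnajb4 and Hspb8 were the 3 genes of the 36 that were called and at least 2-fold higher, and 0 were at least 2-fold lower. Among all genes tested, 18.7% were called and changed at least 2-fold in either direction. All 36 passed the filter on low counts, with 274 to 75803 counts per gene and library. For 16 of the 36 the 3 rShh values lay all above the 3 Control values, and for 11 all below, as held for 35.7% and 32.5% of all genes (68.1% together).

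**Figure D1:**
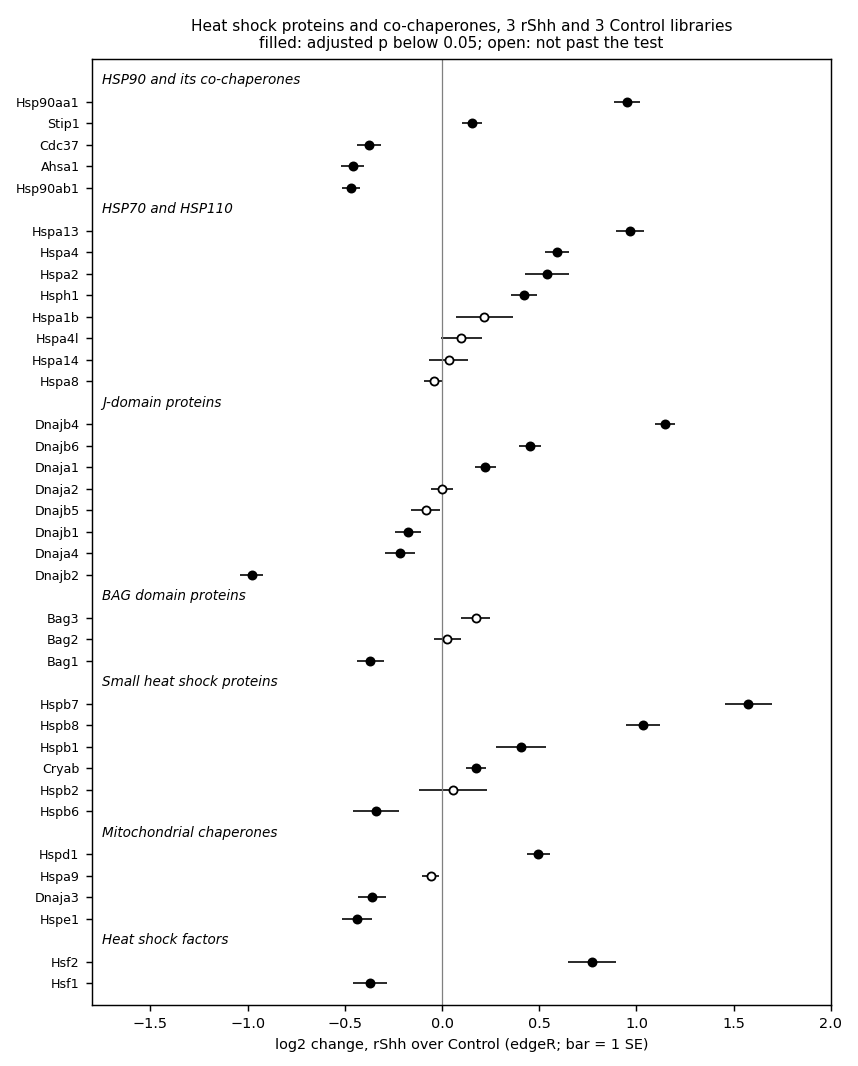
Log2 change of each of the 36 genes (rShh over Control, points, with bars of 1 SE from edgeR), grouped by role; filled points passed an adjusted p of 0.05. Changes run from -0.98 (Dnajb2) to 1.58 (Hspb7), and every role except the HSP70 family and the BAG proteins holds both rises and falls.

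The heat shock factors moved in opposite directions. Hsf1, the main activator of the heat shock response, had 25.7, 23.7 and 22.9 CPM in the rShh libraries and 33.4, 29.0 and 31.1 CPM in the Control libraries (TMM-scaled, as are all levels of single genes below unless FPKM is named). It was lower in all 3 rShh libraries, with a log2 change of -0.37 (SE 0.09, edgeR adjusted p = 0.00391). Hsf2, a paralogue with roles in development that can form trimers with HSF1, had 24.9, 29.0 and 27.5 CPM with rShh and 19.0, 14.1 and 14.5 CPM in Control, again without overlap (log2 change 0.77, SE 0.12, edgeR adjusted p = 0.000388). The ratio of Hsf2 to Hsf1 on the FPKM scale, which divides fragments by gene length and by library size, was 1.07 ± 0.136 in rShh libraries and 0.482 ± 0.0512 in Control libraries (SD, n = 3 each). An exact two-sided permutation test of this log ratio gave p = 0.1, the smallest that 3 samples against 3 allow. After Benjamini-Hochberg adjustment over 4 such ratios this permutation p was 0.133. The 4 ratios were chosen after the values were seen. Hsf1 and Hsf2 already lay apart in opposite directions, so their ratio had to separate the groups.

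Within HSP90, the inducible form rose and the constitutive form fell. Hsp90aa1, the stress-inducible alpha form (chromosome 6, 135107271 to 135112775, minus strand), had 448, 479 and 506 CPM in the rShh libraries and 258, 256 and 227 CPM in the Control libraries. The groups were well apart, with a log2 change of 0.95 (SE 0.07, edgeR adjusted p = 1.17e-06). Hsp90ab1, the constitutive beta form, had 974, 960 and 953 CPM with rShh and 1340, 1272 and 1383 CPM in Control (log2 change -0.47, SE 0.05, edgeR adjusted p = 1.24e-05). Per length, the Hsp90ab1 row was higher than the Hsp90aa1 row. It had 304 ± 2.76 FPKM against 146 ± 10.6 FPKM in rShh cells, and 419 ± 18.1 against 74.9 ± 5.76 FPKM in Control cells. Other rows described like Hsp90aa1, given below, are left out here and in the ratio that follows. With them summed over 3 rows, Hsp90aa1 had 857 CPM with rShh and 408 CPM in Control, against 962 and 1332 CPM for the Hsp90ab1 row. Unlike FPKM, these CPM are not divided by length, so they compare the groups and not the levels of these genes. The FPKM ratio of Hsp90aa1 to Hsp90ab1 was 0.444, 0.481 and 0.512 in the rShh libraries and 0.186, 0.194 and 0.158 in the Control libraries. This ratio does not depend on library scaling, and its groups did not overlap (exact two-sided permutation p = 0.1, adjusted p = 0.133 over 4 ratios). It was chosen after the values were seen. Both genes already lay apart in opposite directions, so their ratio had to separate the groups.

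The co-chaperones of HSP90 also went both ways. Ahsa1, which stimulates the ATPase of HSP90, was lower at 80.2 ± 3.04 CPM with rShh and 110.3 ± 4.39 CPM in Control (n = 3 each, log2 change -0.46, edgeR adjusted p = 8.33e-05). Cdc37, the adaptor that brings kinases to HSP90, had 193, 189.6 and 194 CPM in rShh libraries and 233, 247 and 268 CPM in Control libraries. It was lower in every rShh library (log2 change -0.38, SE 0.06, edgeR adjusted p = 0.000347). Stip1, the scaffold that passes clients between HSP70 and HSP90, was slightly higher, at 164 ± 3.05 CPM with rShh and 147 ± 3.27 CPM in Control (log2 change 0.15, edgeR adjusted p = 0.0223). That call was lost under upper-quartile scaling (edgeR adjusted p = 0.161) and without rShh replicate 2, rShh replicate 3 or Control replicate 2 (edgeR adjusted p = 0.0847 to 0.0886).

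Cdc37 was read from a pair of annotated transcripts on the minus strand of chromosome 8, and their changes were opposite. The 8-exon transcript ENSRNOT00000042314 (22160922 to 22173797, 1604 bases) had 90.4, 91.4 and 92.5 FPKM in rShh libraries and 118, 121 and 133 FPKM in Control libraries. The 9-exon transcript ENSRNOT00000079949 (22154067 to 22173804, 2525 bases) had 5.74, 5.94 and 6.27 FPKM with rShh and 3.22, 4.47 and 3.72 FPKM in Control. Thus the major form was lower and the minor form higher in every rShh library. On isoform counts the log2 changes were -0.45 for the 8-exon transcript (SE 0.06, edgeR adjusted p = 0.00196) and 0.64 for the 9-exon transcript (SE 0.14, edgeR adjusted p = 0.012), adjusted over 18180 isoforms, of which 45.1% passed, 23.8% higher and 21.3% lower. The 9-exon transcript made up 5.97%, 6.10% and 6.35% of the Cdc37 transcript FPKM in rShh libraries and 2.66%, 3.56% and 2.72% in Control libraries. These shares rest on the authors' assignment of shared reads between overlapping transcripts. For Dnajb5 that assignment gave its 5-exon transcript 0%, 100% and 100% in rShh libraries and 100%, 27.2% and 72.2% in Control libraries, while the Cdc37 shares varied by an SD of 0.190 percentage points in rShh and 0.506 in Control.

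**Figure D2:**
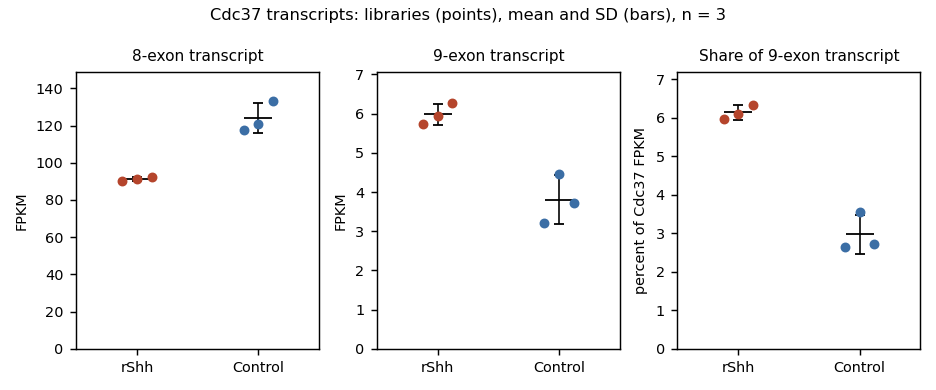
FPKM of the 8-exon and the 9-exon transcript of Cdc37 and the percent of the summed Cdc37 FPKM in the 9-exon transcript, by group; points are libraries and bars the mean with SD, n = 3. The 8-exon transcript lies at 90.4 to 92.5 FPKM in rShh libraries and 118 to 133 in Control libraries, and the 9-exon share at 5.97% to 6.35% in rShh libraries and 2.66% to 3.56% in Control libraries.

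In the HSP70 family 4 of 8 genes rose, 0 fell and 4 did not pass, beside 31.5% higher and 28.8% lower among all genes. The classical inducible and constitutive forms were among those that did not pass. Hspa8, the constitutive HSP70 of the cytosol, had 978, 900.5 and 954 CPM in the rShh libraries and 995, 969 and 953 CPM in the Control libraries, with overlapping groups (log2 change -0.04, SE 0.05, edgeR adjusted p = 0.46). Hspa1b, a stress-inducible HSP70, had 52.3, 46.7 and 52.0 CPM with rShh and 32.0, 45.6 and 52.3 CPM in Control. Its Control values spread widely and reached the rShh range (log2 change 0.22, SE 0.15, edgeR adjusted p = 0.227). The result depended on which Control library was left out. Without Control replicate 1, the lowest, the log2 change was 0.04 (edgeR adjusted p = 0.732). Without Control replicate 3, the highest, it was 0.37 (edgeR adjusted p = 0.038). Hspa2, an HSP70 best known from spermatogenesis, was low and rose to 13.0 ± 1.01 CPM with rShh, against 8.96 ± 0.497 CPM in Control (log2 change 0.54, edgeR adjusted p = 0.00212). Hspa14, which works at the ribosome, stood at 17.5 ± 1.42 CPM with rShh and 17.1 ± 1.048 CPM in Control.

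The genes of the HSP110 branch, which release ADP from HSP70, were higher for its major members. Hspa4 had 381.7, 381.2 and 381.1 CPM in rShh libraries and 269, 259 and 230.3 CPM in Control libraries (log2 change 0.59, SE 0.06, edgeR adjusted p = 1.8e-05). Hsph1, the heat-inducible member, had 196, 202 and 209.7 CPM with rShh and 138, 162 and 152 CPM in Control (log2 change 0.42, SE 0.07, edgeR adjusted p = 0.0003). Neither gene's groups overlapped. Hspa4l, the remaining member, was low at 13.1 ± 0.451 CPM with rShh and 12.2 ± 1.02 CPM in Control and did not pass (edgeR adjusted p = 0.447). Hspa13, an HSP70-like ATPase of the endoplasmic reticulum, stood apart at 102 ± 1.74 CPM with rShh and 52.2 ± 4.69 CPM in Control (log2 change 0.97, SE 0.07, edgeR adjusted p = 1.81e-06).

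Rows described as the same or a similar protein bear on 3 of these values. How alike their sequences are was not computed. The deposited table describes LOC103692716 (chromosome 6, 135045363 to 135049728) with the same protein name as Hsp90aa1, LOC108348108 as the HSP70 protein 1A, and LOC680121, LOC688655 and LOC688932 as similar to Hspa8. Reads can be divided between such rows, so the separate values are uncertain. LOC103692716 had 389, 366 and 355 CPM in rShh libraries and 190.4, 147 and 133 CPM in Control libraries, the same direction as Hsp90aa1 (log2 change 1.24, edgeR adjusted p = 7.38e-06). With these rows and the pseudogene LOC680491 added, the summed Hsp90aa1 level was 857 CPM with rShh and 408 CPM in Control, a log2 change of 1.07. LOC108348108 followed Hspa1b, at 42.9 ± 1.25 CPM with rShh and 36.7 ± 9.41 CPM in Control, and their sum did not pass either (log2 change 0.22, edgeR adjusted p = 0.219). The sum of Hspa8 and its 3 similar rows was 1262 CPM with rShh and 1295 CPM in Control (edgeR adjusted p = 0.454). The Hspa1b row also overlaps 4 other rows of the table, among them RT1-CE1, RT1-CE4 and RT1-CE7 of the MHC on the same strand.

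**Figure D3:**
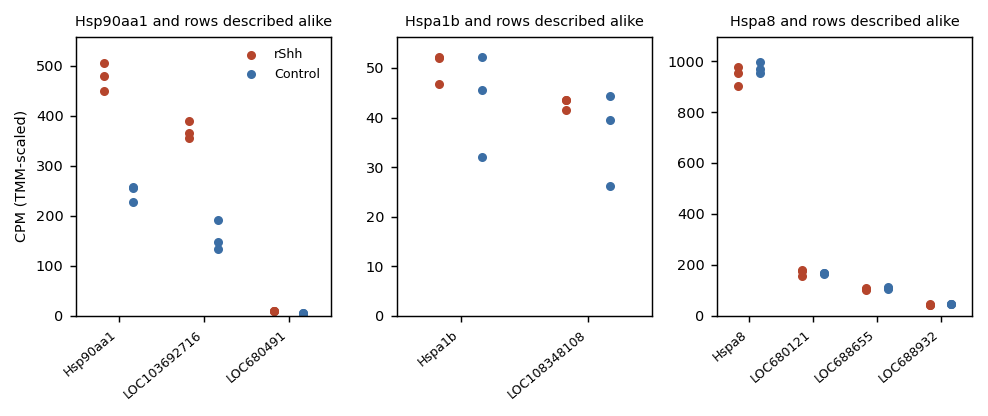
Level in each library (TMM-scaled CPM, points) of Hsp90aa1, Hspa1b and Hspa8 and of the rows that the deposited table describes as the same or a similar protein. Hsp90aa1 and LOC103692716 are higher in all 3 rShh libraries, and the Hspa1b and Hspa8 rows overlap between groups.

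J-domain proteins deliver clients to HSP70. Here 3 of 8 rose, 3 fell and 2 did not pass, beside 31.5% higher and 28.8% lower among all genes. Dnajb4, a class B protein of this family (chromosome 2, 257394818 to 257425242, minus strand), had 191, 193 and 192 CPM in the rShh libraries and 85.2, 88.1 and 86.6 CPM in the Control libraries. It had the smallest p of the 36 genes (log2 change 1.15, SE 0.05, edgeR adjusted p = 4.24e-08). Dnajb2, which binds ubiquitinated clients and helps to pass them to the proteasome, had 59.5, 56.3 and 60.5 CPM with rShh and 115, 113 and 120.3 CPM in Control. This was the most negative change among the 36 (log2 change -0.98, SE 0.06, edgeR adjusted p = 4.23e-07). Dnajb6, which keeps polyglutamine proteins from aggregating, was higher at 78.5 ± 1.49 CPM with rShh and 57.4 ± 0.878 CPM in Control (log2 change 0.45, edgeR adjusted p = 6.97e-05). Dnaja1, a class A partner of HSP70, was higher at 187 ± 6.48 CPM with rShh and 160.3 ± 6.90 CPM in Control (log2 change 0.22, edgeR adjusted p = 0.00549).

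Dnajb1, the stress-inducible partner of HSP70, had 68.2, 62.3 and 62.6 CPM in rShh libraries and 69.8, 71.1 and 76.7 CPM in Control libraries. The gap between its groups was narrow (log2 change -0.17, SE 0.07, edgeR adjusted p = 0.0445). Dnaja4 was also lower, at 25.8 ± 0.270 CPM with rShh and 30.0 ± 1.61 CPM in Control (log2 change -0.22, edgeR adjusted p = 0.0327). Both calls were lost when rShh replicate 2, rShh replicate 3 or Control replicate 3 was left out, that of Dnaja4 also without rShh replicate 1 and that of Dnajb1 also without Control replicate 2 (edgeR adjusted p = 0.0694 to 0.152). With no filter on low counts the call of Dnajb1 was lost as well (edgeR adjusted p = 0.0546). Dnaja2 stood at 132.8 ± 2.07 CPM with rShh and 132.8 ± 7.32 CPM in Control and Dnajb5 at 32.7 ± 1.43 CPM with rShh and 34.7 ± 1.15 CPM in Control, and neither passed.

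BAG proteins bind the ATPase domain of HSP70 and release its nucleotide. Here 1 fell, 0 rose and 2 did not pass, beside 28.8% lower and 31.5% higher among all genes. Bag1, which also links HSP70 to the proteasome, had 62.4, 62.3 and 63.5 CPM with rShh and 73.9, 82.3 and 87.0 CPM in Control, and fell in all 3 rShh libraries (log2 change -0.37, SE 0.07, edgeR adjusted p = 0.00108). Bag3, the stress-inducible member that works with Hspb8 in the autophagy of damaged proteins, had 110.1, 105 and 108 CPM in rShh libraries and 85.3, 99.97 and 102 CPM in Control libraries. Its groups did not overlap, yet it did not pass (log2 change 0.17, SE 0.07, edgeR adjusted p = 0.0627). It passed without Control replicate 3 (edgeR adjusted p = 0.0256) and with limma on FPKM (adjusted p = 0.0411). Without Control replicate 1 its log2 change was 0.09 (edgeR adjusted p = 0.155), and under upper-quartile scaling 0.11 (edgeR adjusted p = 0.238). Bag2, an inhibitor of the ubiquitin ligase CHIP, stood at 61.8 ± 4.22 CPM with rShh and 60.6 ± 1.63 CPM in Control.

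**Figure D4:**
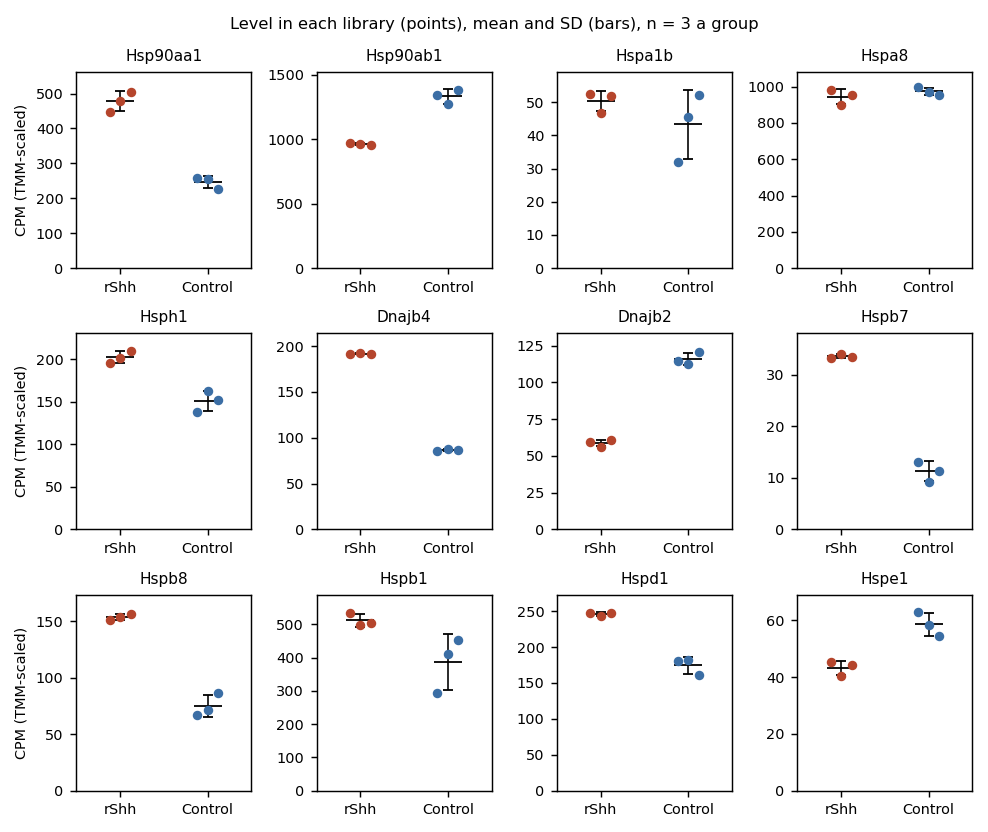
Levels of 12 genes in each library (TMM-scaled CPM, points; bars are the mean and SD, n = 3), with axes from 0. Hspb7 lies at 33.3 to 34.0 CPM in rShh libraries and 9.28 to 13.1 in Control libraries, while Hspa8 and Hspa1b overlap between groups.

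Small heat shock proteins held Hspb7, the largest rise, and Hspb8, which followed Dnajb4 in size. Of 6 genes, 4 rose, 1 fell and 1 did not pass, beside 31.5% higher and 28.8% lower among all genes. Hspb7, a small heat shock protein known from heart and skeletal muscle (chromosome 5, 159967839 to 159971562, plus strand), had 33.3, 34.0 and 33.5 CPM in the rShh libraries and 13.1, 9.28 and 11.3 CPM in the Control libraries. This 2.98-fold difference was the largest among the 36 genes (log2 change 1.58, SE 0.12, edgeR adjusted p = 2.2e-06). Hspb8, the partner of Bag3, had 152, 153 and 156 CPM with rShh and 67.5, 71.6 and 86.2 CPM in Control (log2 change 1.03, SE 0.09, edgeR adjusted p = 3.59e-06). Both sets of values were clear of each other.

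The abundant small heat shock proteins changed less. Hspb1, which also caps actin filaments, had 534, 496 and 504 CPM in rShh libraries and 293, 411 and 454 CPM in Control libraries. Control replicate 1 was far below the other Control libraries (log2 change 0.41, SE 0.13, edgeR adjusted p = 0.0191). Without Control replicate 1 the log2 change was 0.24, and without Control replicate 3 it was 0.54. The call was lost with DESeq2 (adjusted p = 0.0547) and without rShh replicate 1 (edgeR adjusted p = 0.0686). Cryab, alpha B crystallin, was slightly higher at 508 ± 26.3 CPM with rShh and 449.6 ± 6.55 CPM in Control (log2 change 0.18, edgeR adjusted p = 0.0129), but not under upper-quartile scaling (edgeR adjusted p = 0.0978) nor without rShh replicate 1 or rShh replicate 3. Hspb6, a regulator of smooth muscle relaxation, had 23.4, 22.5 and 24.5 CPM with rShh and 24.3, 30.5 and 34.2 CPM in Control. Control replicate 1 was again the lowest Control library and lay inside the rShh range, so the groups overlapped (log2 change -0.34, SE 0.12, edgeR adjusted p = 0.0296), and the call was lost without any one of the rShh libraries, Control replicate 2 or Control replicate 3. Hspb2 was low and overlapped, at 6.50 ± 0.249 CPM with rShh and 6.25 ± 1.41 CPM in Control.

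Summed per length, the 6 small heat shock proteins reached 944 ± 20.4 FPKM in rShh libraries and 737 ± 82.7 FPKM in Control libraries. Hspb1 and Cryab carried most of it, at 489 ± 10.8 and 343 ± 12.7 FPKM with rShh and 367 ± 76.4 and 301 ± 4.74 FPKM in Control. Control replicate 1 was the lowest Control library for Hspb1, Hspa1b, Bag3 and Hspb6, and for others such as Hspb8, Hsph1, Bag1 and Cdc37. It was the highest for Hsp90aa1, Hspa4, Hspa8, Hspb7, Hsf1 and Hsf2, among others. Its summed level of 9 early response genes was the lowest of the Control libraries, 789 CPM, with 1030 and 1081 CPM in Control replicates 2 and 3. In the rShh libraries that sum was 1728 to 1776 CPM. Of the 9 early response genes 6 rose and 2 fell, beside 31.5% higher and 28.8% lower among all genes. Egr1 rose most, at 286 ± 19.3 CPM with rShh and 17.7 ± 3.76 CPM in Control (log2 change 4.02). Fos followed, at 35.3 ± 1.46 CPM with rShh and 2.37 ± 0.999 CPM in Control (log2 change 3.90). Both changes were larger than any among the 36 genes. Jun and Atf3 fell, with log2 changes of -0.35 and -0.74. Of 10 muscle markers 8 had a row, and their summed level was 9.60 to 11.8 CPM in rShh libraries and 1.87 to 12 CPM in Control libraries. Among the 3 tested, Des and Tnnt3 rose, though the Tnnt3 groups overlapped, and Actn2 did not pass. Control replicate 1 had 261 counts of the myosin gene Myh7, which was at 0 in each other library. It was also the highest Control library for Ckm, Actn2, Actc1, Tnnt2 and Tnnt3, at 47, 70, 58, 62 and 104 counts. Des and Mb were highest in Control replicate 2 among the Control libraries. The part of the early response and muscle genes in these results was not tested.

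Of 4 mitochondrial chaperones 1 rose, 2 fell and 1 did not pass, beside 31.5% higher and 28.8% lower among all genes. Hspd1, which forms the folding chamber of the matrix, had 248, 243 and 247 CPM in the rShh libraries and 180.0, 182 and 161 CPM in the Control libraries. It rose in all 3 rShh libraries (log2 change 0.50, SE 0.06, edgeR adjusted p = 4.65e-05). Hspe1, the lid of that chamber, had 45.1, 40.2 and 44.2 CPM with rShh and 62.8, 58.3 and 54.4 CPM in Control, and fell (log2 change -0.44, SE 0.08, edgeR adjusted p = 0.000693). The FPKM ratio of Hspd1 to Hspe1 was 0.659, 0.726 and 0.669 in rShh libraries and 0.344, 0.375 and 0.355 in Control libraries. An exact two-sided permutation test of the log ratio gave p = 0.1, and 0.133 adjusted over 4 ratios. This ratio too was chosen after the values were seen, from genes that already lay apart in opposite directions, so it had to separate the groups. Dnaja3, the J-domain partner of the mitochondrial HSP70, fell to 43.2 ± 2.29 CPM with rShh, against 55.4 ± 3.36 CPM in Control (log2 change -0.36, edgeR adjusted p = 0.00168). Hspa9, that HSP70 itself, stood at 494 ± 9.52 CPM with rShh and 515 ± 12.1 CPM in Control and did not pass (edgeR adjusted p = 0.285), though it was called lower under upper-quartile scaling (log2 change -0.13, edgeR adjusted p = 0.0361).

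Hspd1 and Hspe1 lie head to head on chromosome 9 with 1197 bases between their rows in the deposited table, so the opposite changes belong to neighbouring genes. Hspb2 and Cryab, also head to head with 470 bases between them on chromosome 8, had overlapping FPKM ratios of Cryab to Hspb2, 34.4 ± 2.47 in rShh libraries and 32.9 ± 7.68 in Control libraries (exact two-sided permutation p = 0.7, adjusted p = 0.7 over 4 ratios, n = 3 each).

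Promoters were searched for heat shock elements, since HSF1 binds these repeats. RefSeq promoter windows of 300 bases (build GRCr8, 250 before and 50 after the start) were at hand for 30 of the 37 listed genes, and those of Hsp90aa1, Hspa1b, Hspb2, Dnaja2, Dnajb4, Cryab and Hsf1 were not used here. The longer motif was the units GAA, TTC and GAA, with NN between each, or its reverse complement TTC, GAA and TTC spaced alike. The shorter was GAANNTTC or TTCNNGAA, which each read alike on both strands and lie inside the longer one. The longer motif stood in 5 of the 30 windows and in 0.798% of all 33469 windows. The shorter stood in 16 of the 30 and in 15.9% of all windows. The 30 include Hspa1a, whose window held neither motif. The genes with the longer motif were Hspa8, Hsph1, Hspd1, Hspe1 and Dnaja1, and their log2 changes were -0.04, 0.42, 0.50, -0.44 and 0.22, so windows that share the motif belonged to genes that rose, fell and did not pass. The 250 bases before the start are shown for Hspd1, Hspa8 and Hsph1, whose longer motif lies there, and not for Hspe1, whose motif is the one in the Hspd1 window, with the window of Hspb8, the gene with the largest change among those that hold only the shorter motif, for comparison. Capitals mark matches to the longer motif, and to the shorter one in Hspb8.
Hspd1 (chr9:64084038-64084287, minus strand): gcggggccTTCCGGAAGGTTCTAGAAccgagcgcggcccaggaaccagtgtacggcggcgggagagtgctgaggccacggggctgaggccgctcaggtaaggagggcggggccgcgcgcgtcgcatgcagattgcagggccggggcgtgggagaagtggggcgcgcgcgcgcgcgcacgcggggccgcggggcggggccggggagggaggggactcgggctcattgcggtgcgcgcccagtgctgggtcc
Hspa8 (chr8:50080264-50080513, plus strand): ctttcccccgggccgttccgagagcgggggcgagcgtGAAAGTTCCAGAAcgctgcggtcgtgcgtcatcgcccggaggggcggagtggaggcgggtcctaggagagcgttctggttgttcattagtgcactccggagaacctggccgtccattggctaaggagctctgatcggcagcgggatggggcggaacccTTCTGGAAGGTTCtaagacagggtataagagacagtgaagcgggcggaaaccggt
Hsph1 (chr12:10427118-10427367, plus strand): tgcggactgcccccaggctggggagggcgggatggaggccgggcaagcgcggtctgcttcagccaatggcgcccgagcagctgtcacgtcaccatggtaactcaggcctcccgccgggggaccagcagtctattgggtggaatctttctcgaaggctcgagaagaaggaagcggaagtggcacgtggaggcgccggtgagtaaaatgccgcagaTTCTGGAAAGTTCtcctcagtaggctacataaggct
Hspb8 (chr12:45837058-45837307, plus strand): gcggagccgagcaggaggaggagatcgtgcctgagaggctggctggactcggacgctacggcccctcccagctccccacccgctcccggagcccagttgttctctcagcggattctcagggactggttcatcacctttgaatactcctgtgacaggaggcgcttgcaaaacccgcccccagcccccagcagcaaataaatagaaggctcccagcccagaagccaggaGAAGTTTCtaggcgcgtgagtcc

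In the Hspd1 window the matches overlap in 1 run of 18 bases, 242 to 225 bases before its start. The Hspe1 window shares 211 bases with it as the reverse complement and so holds the same run, and 289 bases lie between the starts of this pair in GRCr8. Hspa8 has a run of 13 bases at 213 to 201 and another at 55 to 43 bases before the start. Hsph1 has 1 run of 13 bases at 36 to 24 bases before the start; its strand is plus in GRCr8 and minus in the coordinates of the deposited table. In Dnaja1 the match begins 10 bases after the start and is not shown. Hspb8 has only the shorter motif, 23 to 16 bases before the start, and the windows of Hspb7 and Dnajb2, the genes with the most positive and most negative changes, hold no match to these letters. A match is a run of letters and was not tested for binding. The search covered only these exact letters in these windows, so a window without a match does not show that an element is absent.

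Chaperone genes outside the 36 were taken from 6 further lists, 69 genes of which 67 were tested. Of these 20 rose, 30 fell and 17 did not pass, beside 31.5% higher and 28.8% lower among all genes, and their median log2 change was -0.11. Prefoldin, which hands new actin and tubulin to the chaperonin, had 5 of 6 subunits lower and 0 higher (median log2 change -0.44). Pfdn6 was at 41.1 ± 1.47 CPM with rShh and 62.5 ± 2.47 CPM in Control (log2 change -0.61, edgeR adjusted p = 2.48e-05), and Pfdn5 and Pfdn2 fell by 0.47 and 0.41 on the log2 scale. The chaperonin TRiC itself was split, with 3 of 8 subunits higher and 4 lower. Cct8 rose to 216 ± 0.723 CPM, against 169 ± 7.92 CPM in Control, while Cct5 and Cct7 fell by 0.45 and 0.37 on the log2 scale.

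Other co-chaperones of HSP90 and HSP70 had 7 of 19 genes higher and 10 lower (median log2 change -0.26). Fkbp4, the immunophilin of steroid receptor complexes, fell to 73.5 ± 2.02 CPM with rShh, against 129 ± 7.64 CPM in Control (log2 change -0.82, edgeR adjusted p = 1.96e-06). Chordc1, a heat-inducible HSP90 binding protein, rose to 53.1 ± 1.31 CPM, against 29.8 ± 1.54 CPM in Control (log2 change 0.83, edgeR adjusted p = 4.16e-06). Among other cytosolic J-domain proteins 6 of 14 rose, 2 fell and 6 did not pass (median log2 change 0.31). Dnajc21 and Dnajc13, which act in ribosome assembly and endosome traffic, had log2 changes of 1.02 and 0.80.

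**Figure D5:**
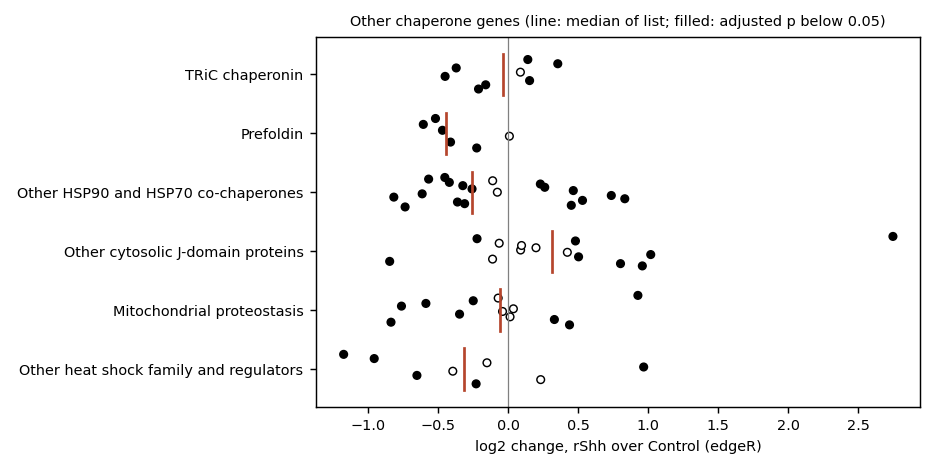
Log2 change (rShh over Control, edgeR) of each tested gene in 6 further chaperone lists; filled points passed an adjusted p of 0.05 and vertical lines are list medians. Prefoldin lies at or below 0.01 throughout, with a median of -0.44, and the other lists hold genes on both sides of 0.

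Of 12 genes of mitochondrial protein quality control, 3 rose, 5 fell and 4 did not pass (median log2 change -0.06). The matrix protease gene Lonp1 fell to 256 ± 4.94 CPM with rShh, against 384 ± 12.5 CPM in Control. The intermembrane space protease Htra2 also fell, by 0.76 on the log2 scale, and the inner membrane protease Yme1l1 rose, with a log2 change of 0.93. Of 8 tested genes among other heat shock family members and regulators, 1 rose and 4 fell. Serpinh1, the collagen chaperone of the endoplasmic reticulum, was at 2441 ± 133 CPM with rShh and 5506 ± 372 CPM in Control (log2 change -1.17, SE 0.06, edgeR adjusted p = 1.14e-07). Hspa1l, which lies near the inducible HSP70 genes and resembles them, had a log2 change of 0.97 and Hspbap1 one of -0.96.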

How the data were processed

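Poly(A) RNA libraries of 6 samples, 3 rShh and 3 Control, were read from the authors' deposited gene table (19088 rows) and isoform table (24343 rows). The deposited counts are whole numbers and not normalized. The other deposited columns are FPKM, per the file headers, a unit scaled to length and library size; a gene row's FPKM is not the sum of its transcripts' FPKM. The tools named, per the submitters' processing notes, were HISAT2 2.0.4, cutadapt 1.9, edgeR, DESeq2 and StringTie 1.3.4d. Which step each served, the strand setting and the genome build were not given in the sources used here. Row coordinates are those of the deposited tables.

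Here counts were filtered with filterByExpr, scaled by TMM and tested with edgeR 4.0.16 (glmQLFit, glmQLFTest, group only, two-sided) in R 4.3.3, with Benjamini-Hochberg adjustment over all genes or isoforms and a threshold of 0.05. The standard error is the log2 change divided by the root of its F statistic. CPM are TMM-scaled, except summed marker levels, which use library sizes alone. Alternatives were RLE and upper-quartile scaling, library sizes alone, DESeq2 1.42.0, limma 3.58.1 on log2(FPKM + 1) and log2(FPKM + 0.1) for rows of at least 1 FPKM on average, no filter, a replicate block, and each library left out. A further setting, added after seeing the data, summed rows described alike. The edgeR and DESeq2 fits were tested on simulated data, in which edgeR recovered fewer of the known changes among isoforms than among genes. Far fewer genes changed in the simulated data than were called here, so it does not measure the error of these calls.

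Genes were kept by symbol, and the text names all members, up to 3 genes of each further list with the smallest p, and Cdc37 transcripts. Some genes that this rule names are not reported here. The members and lists were chosen with earlier results of these data known. Replicates of a group differed by more than counting noise (chi-square per degree of freedom 10.5 to 50.5), so no library was treated as another deposited again; this does not show that they came from separate cultures.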

Additional observations from a re-analysis of the deposited data

How the results depend on the processing

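Summing rows described alike, run for 3 genes, changed no call of theirs. Over the 14 alternative settings run for every gene, 20 of the 26 called genes kept their direction and call in each. The exceptions were Cryab, Dnaja4, Dnajb1, Hspb1, Hspb6 and Stip1, which each lost the call in 2 to 6 settings; Bag3, Hspa1b and Hspa9 gained one in 1 to 3. The cause was not tested. Counts of higher genes ranged from 13 to 17 and of lower genes from 8 to 12 among the 36, and over all genes from 3973 to 4878 and from 3676 to 4798. Upper-quartile scaling turned the overall split of calls to 4273 higher and 4798 lower, moving the median of all genes from 0.01 to -0.05. Directions turned in 4 genes that never passed. Hspa14 had log2 changes of -0.0322 under upper-quartile scaling, -0.0338 without rShh replicate 3 and -0.0159 without Control replicate 2 (-0.0338 to 0.0773 over all fits without a library). Dnaja2, at -0.0004 in the main test, had 0.0099 and 0.0101 with limma at pseudocounts of 1 and 0.1, 0.000978 with the replicate block, and -0.0465 to 0.0278 when a library was left out. Bag2 had -0.0393 under upper-quartile scaling and -0.0164 to 0.0801 when a library was left out. Hspb2 had -0.00858 under upper-quartile scaling and -0.101 to 0.228 when a library was left out.

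The groups share replicate numbers, but same-numbered libraries did not deviate together (correlations of -0.086, -0.005 and 0.010), and not every library correlated best with its own number. With the replicate block 14 of the 36 genes were higher and 9 lower, against 15 and 11, and 4470 and 3970 over all genes. Stip1 (edgeR adjusted p = 0.0568), Dnaja4 (0.0691) and Dnajb1 (0.0838) lost their calls under the block. The Cdc37 transcripts kept their calls under each alternative run on isoforms, at log2 changes of 0.52 to 0.77 and -0.50 to -0.39 when a library was left out and 0.65 and -0.45 with the block.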
